A study of Mus musculus with 6 samples.

Results

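Toll-like receptor (TLR) transcripts were followed in liver non-parenchymal cells, which are the cells of the liver other than hepatocytes, from mice with nonalcoholic steatohepatitis (NASH). The genes were Tlr1, Tlr2, Tlr3, Tlr4, Tlr7, Tlr8, Tlr9 and Tlr13 with the co-receptor gene Cd14 and the adaptor gene Myd88, taken by symbol, and all 10 were found among the 19349 gene rows of the 6 libraries. Male C57BL/6J mice, 8 weeks old at the start, had received a high-fat diet for 24 weeks, and DMSO vehicle or ginkgetin, a biflavone of Ginkgo biloba leaves, at 10 mg/kg/day by stomach tube over the last 8 weeks. Each group had 3 libraries, made with the 10x Genomics Chromium system, and all of them carried the diet, so no lean liver was compared. The study's methods count these as the replicates of each group and do not say whether a library held the cells of 1 mouse, so p-values measure only the spread between these libraries.

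TLRs are membrane receptors that bind molecules of microbes and of damaged cells. TLR1, TLR2 and TLR4 work at the cell surface, where TLR2 binds lipoproteins, with TLR1 as a partner, and TLR4 binds lipopolysaccharide handed over by CD14. TLR3, TLR7, TLR8, TLR9 and TLR13 sit in endosomes and bind nucleic acids, TLR3 double-stranded RNA, TLR7 and TLR8 single-stranded RNA, TLR9 unmethylated CpG DNA and TLR13 bacterial ribosomal RNA. MyD88 is the adaptor of all of these receptors except TLR3, which signals through TRIF (gene Ticam1). Kupffer cells, the resident macrophages of the liver, and sinusoidal endothelial cells meet gut-derived products that arrive in portal blood.

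The libraries held 33168 cell barcodes, of which 27544 were kept, and 13128697 to 61796882 unique molecular identifiers (UMIs, each a counted transcript molecule). Kept cells of any 2 libraries shared between 0 and 66 barcodes over the 15 pairs. The replicate 3 libraries of both groups were deeper per cell, with medians of 8412 and 6262 UMIs against 2483 to 4365 in the other 4, and carried another set of gene symbols, in which 2253 rows had counts only in replicate 3 and 946 only in replicates 1 and 2. The members were counted in both sets. Clusters were named from marker genes, which gave 4140 macrophage-like, 2431 monocyte-like, 1267 dendritic-like, 2626 B cell-like and 7264 endothelial-like cells. Clec4f, a marker used for the naming, was at 1108 to 4047 counts per 1000000 UMIs (CPM) in macrophage-like cells. In endothelial-like cells it reached at most 30.9 CPM. Kdr was at 1253 to 2944 CPM in endothelial-like cells and Cd79a at 1283 to 2957 CPM in B cell-like cells. All of them served for the naming, so these values describe the classes and do not test the names.

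Macrophage-like cells were unevenly sampled. Vehicle libraries 1, 2 and 3 held 1337, 743 and 1133 of them and ginkgetin libraries 106, 252 and 569, with a median depth of 7647 to 16380 UMIs per cell under vehicle and 2061 to 2404 under ginkgetin. The 2 groups filled different clusters, since Kupffer-like cells of vehicle replicates 1 and 2 lay mostly in 1 cluster, those of vehicle replicate 3 in another and those of ginkgetin in yet another, while a Trem2-high and Gpnmb-high macrophage cluster came mostly from vehicle replicate 3. Kupffer-like cells made up 93.3%, 98.7% and 39.9% of macrophage-like cells in the vehicle libraries and 100%, 99.6% and 94.0% in the ginkgetin libraries. Counts were summed over the cells of a class in a library before any comparison, and CPM are relative to the UMIs of that sum.

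In the mouse genome (GRCm38, GENCODE M21) Tlr3 lies at chr8:45395665-45411080 and Tlr1 at chr5:64924679-64933563, both on the minus strand. Tlr2 lies at chr3:83836272-83841767, Tlr4 at chr4:66827584-66930284, Tlr9 at chr9:106222598-106226883 and Myd88 at chr9:119335934-119341411. Tlr7, Tlr8 and Tlr13 are on chromosome X, at chrX:167304929-167330558, chrX:167242696-167264329 and chrX:106143204-106160493. All 10 members, Cd14 included, are annotated as protein-coding genes. Myd88 overlaps Slc22a14 on its own strand, which had no count in the 5 classes compared, and Acaa1a, a peroxisomal thiolase gene, on the other strand. Since the strand setting of the counting is not given in the sources used here, its reads are uncertain. Tlr3 overlaps only an antisense gene, Gm45542, which had no count in macrophage-like cells.

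The promoters of Tlr3 and Tlr1 are shown because these were the TLR genes with an adjusted p under 0.05 between treatments in macrophage-like cells. Each is the 250 bases before a start annotated in RefSeq (GRCm38.p6), read on the gene's strand, at chr8:45410381-45410630 for Tlr3 and chr5:64933559-64933808 for Tlr1. RefSeq gives Tlr1 another start, and the upstream one is shown. GENCODE begins Tlr3 farther upstream, so that the RefSeq window shown lies inside the gene as placed above, as does that of Myd88. Capitals mark a match to the core site of PU.1 (GAGGAAGT), a transcription factor of myeloid cells.
Tlr3: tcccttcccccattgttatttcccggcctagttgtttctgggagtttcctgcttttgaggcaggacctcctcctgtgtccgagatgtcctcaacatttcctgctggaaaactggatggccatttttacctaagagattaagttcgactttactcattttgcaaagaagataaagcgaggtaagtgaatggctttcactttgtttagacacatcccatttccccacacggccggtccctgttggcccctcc
Tlr1: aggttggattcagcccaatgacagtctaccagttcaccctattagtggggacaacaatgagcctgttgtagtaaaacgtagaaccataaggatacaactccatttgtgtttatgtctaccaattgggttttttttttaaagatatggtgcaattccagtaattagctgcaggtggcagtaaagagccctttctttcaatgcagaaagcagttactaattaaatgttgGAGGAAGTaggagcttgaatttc
RefSeq windows of 300 bases, reaching 50 bases past the start, were matched for 7 of the 10 members. On either strand the PU.1 core was present in 1052 of 32851 windows of all genes (3.2%) and the core of the interferon-stimulated response element in 1131 (3.44%). The PU.1 core was found once in the Tlr1 window shown, not in that of its other start (chr5:64932650-64932949), and once in that of Tlr9, and the interferon-stimulated core once in that of Myd88. The Tlr3 window held neither string of letters.

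Each member had its own distribution over cell classes, as the heat map of class means shows. Values here are means ± SD over the 6 libraries (n = 6) of CPM in the summed cells of a class, and neighbours in an order are called apart only where these ranges do not overlap. The orders pool both groups, and overlapping neighbours could exchange places between them. By group means of vehicle and ginkgetin, Tlr1 was at 45.6 and 35.5 CPM in macrophage-like and 25.3 and 35.9 in B cell-like cells. Tlr2 was at 28.7 and 18.2 CPM in dendritic-like and 17.9 and 24.2 in endothelial-like cells, and Tlr4 at 23 and 19.2 CPM in endothelial-like and 18.9 and 19.8 in stellate-like cells, so those pairs exchanged places as well. Tlr1 was highest in macrophage-like cells (40.6 ± 6.99 CPM), followed by B cell-like (30.6 ± 8.52) and monocyte-like cells (18.3 ± 7.12), and each neighbouring pair overlapped. Tlr2 was highest in monocyte-like (104 ± 44.0) and macrophage-like cells (73.5 ± 24.4), which overlapped, and both stood apart from dendritic-like (23.5 ± 11.3) and endothelial-like cells (21.1 ± 7.68). Tlr4 was highest in macrophage-like cells (34.9 ± 12.3), with endothelial-like (21.1 ± 3.84) and stellate-like cells (19.4 ± 8.64) overlapping behind them. By means over all libraries each surface receptor was highest in a myeloid class, but only Tlr2 stood apart there from the classes that are not myeloid. Endothelial-like cells held a second level for Tlr2 and Tlr4 but not for Tlr1 (1.19 ± 0.719 CPM).

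The endosomal receptors divided further. Tlr3 was highest in dendritic-like cells (83.3 ± 47.3 CPM), where nearly all of it came from type 1 conventional cells, the cross-presenting dendritic cells. In those it ran from 99.8 to 374 CPM, against 0 to 5.79 in type 2 conventional cells. Endothelial-like cells followed at 39.9 ± 6.24 CPM and were apart from cholangiocyte-like (24.6 ± 8.10) and macrophage-like cells (18.7 ± 11.5). Tlr7 was highest in plasmacytoid-like cells (74.5 ± 42.6), which overlapped monocyte-like (47.4 ± 38.7) and macrophage-like cells (39.0 ± 12.1). Plasmacytoid-like and macrophage-like cells were apart from B cell-like cells (10.1 ± 4), and monocyte-like cells, with their wide spread, were not. Tlr13 (41.3 ± 21.8 in monocyte-like, 32.0 ± 11.1 in macrophage-like) and Tlr8 (6.62 ± 4.60 in macrophage-like, 6.28 ± 4.44 in monocyte-like) led in the same pair of classes, with no separation between the pair. Between groups the order changed for Tlr3, at 24.6 and 24.5 CPM in cholangiocyte-like cells under vehicle and ginkgetin against 8.58 and 28.9 in macrophage-like cells. It also changed between monocyte-like and macrophage-like cells for Tlr7 (35.9 and 58.9 against 41.9 and 36 CPM), Tlr13 (31.7 and 51 against 36.4 and 27.7 CPM) and Tlr8 (6.41 and 6.15 against 9.68 and 3.55 CPM). Tlr9 had 91 UMIs in all libraries together, the highest class being plasmacytoid-like cells at 2.37 ± 2.57 CPM, and no class had enough of it to be tested.

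Cd14 was close in macrophage-like (208 ± 140 CPM) and monocyte-like cells (201 ± 120), which held 70.4% and 23.2% of its UMIs in kept cells, and cholangiocyte-like cells came next at 138 ± 112. Myd88 was the most widespread member, from 86.8 ± 25.8 CPM in monocyte-like cells to 45.4 ± 21.2 in macrophage-like cells, with plasmacytoid-like and dendritic-like cells between them and every neighbouring pair overlapping. By group means macrophage-like cells were lowest of these 4 under vehicle (42.4 CPM, beside 62.1 in dendritic-like and 67.9 in plasmacytoid-like cells) and second under ginkgetin (48.5 CPM, beside 37 and 47.6). The T cell-like class, taken as a guide to free RNA, had 0.274 to 3.65 CPM of Tlr3, 0.304 to 3.56 of Cd14 and no UMI of Tlr8. It had 16.1 to 32.9 CPM of Myd88, a gene that T cells use themselves.

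**Figure D1:**
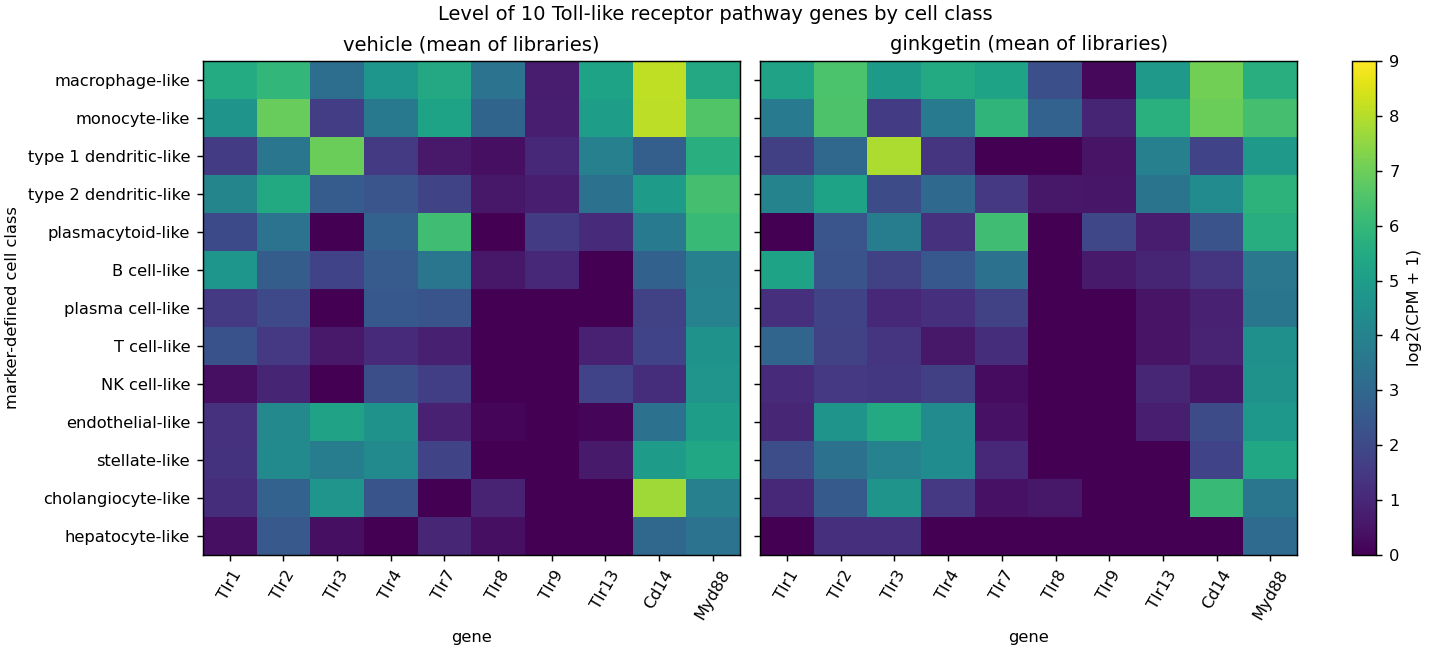
Mean level of the 10 genes over the 3 libraries of each group, as log2(CPM + 1) on a colour scale, by marker-defined cell class (rows) and gene (columns). Tlr3 is brightest in type 1 dendritic-like cells, Tlr7 in plasmacytoid-like cells, and Cd14 in macrophage-like, monocyte-like and cholangiocyte-like cells in both panels.

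In macrophage-like cells Tlr3 was the member that rose with ginkgetin. Its level was 8.40, 7.40 and 9.93 CPM in vehicle libraries 1, 2 and 3 and 34.1, 25.4 and 27.1 CPM in ginkgetin libraries 1, 2 and 3. Every ginkgetin library lay above every vehicle library. The ginkgetin values rested on 12, 18 and 59 UMIs, with 95% Poisson intervals (counting error only) of 17.6 to 59.6, 15 to 40.1 and 20.6 to 34.9 CPM. The log2 fold change was 1.27 ± 0.26 (SE), a 2.41-fold rise, with an adjusted p of 0.0264 in edgeR. Tlr3 was thereby 1 of 9 members tested to be called, at an adjusted p under 0.05 and over 2-fold, against 10.5% of the 10368 genes tested in the class. Within replicates 1 and 2 the log2 fold change of Tlr3 was 1.43, and in replicate 3 alone the log2 ratio was 0.89.

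The call for Tlr3 rested on most of the libraries. Its adjusted p was 0.123 without vehicle replicate 1, 0.142 without vehicle replicate 2, 0.0521 without ginkgetin replicate 1, 0.0806 without ginkgetin replicate 2 and 0.0565 without ginkgetin replicate 3, while the log2 fold change stayed between 1.04 and 1.38. The fit without vehicle replicate 3 kept the call, at 1.31 and an adjusted p of 0.0348. Leaving out replicate 1 or 2 of vehicle, or replicate 2 of ginkgetin, left no call among the 9981, 9976 and 11317 genes tested, so all calls of the class were lost there. With cells kept at 250 to 5000 UMIs, the filter as the methods word it, Tlr3 was at 1.09 with an adjusted p of 0.14.

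Markers of other cells that carry Tlr3 were present in the same sums. The summed level of the 10 endothelial markers in macrophage-like cells was 195 to 222 CPM under vehicle and 995 to 1805 under ginkgetin, none of them at 0, which is 1.51% to 2.35% and 5.61% to 11.6% of its level in endothelial-like cells of the same libraries. The same percentages of the endothelial Tlr3 level come to 0.621 to 0.726 CPM under vehicle and 2.61 to 5.17 CPM under ginkgetin. Xcr1, a marker of type 1 conventional dendritic cells, was at 0.425 to 1.86 CPM under vehicle and 2.84 to 5.64 under ginkgetin, and its percentage of the type 1 dendritic-like level, taken of their Tlr3, comes to 0.114 to 0.491 and 1.04 to 2.43 CPM. The part of these cells in the Tlr3 level was not tested.

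Tlr1 and Cd14 were lower in macrophage-like cells of ginkgetin libraries. Tlr1, the TLR2 partner, was at 47.3, 38.7 and 50.8 CPM under vehicle and 37.0, 32.4 and 37.2 CPM under ginkgetin, without overlap. Its log2 fold change of -0.83 ± 0.19 had an adjusted p of 0.0346 in edgeR but was 1.77-fold and so was not called. Cd14 was at 173, 183 and 488 CPM under vehicle and 122, 111 and 170 CPM under ginkgetin, with vehicle replicate 3 far above the rest and the groups again not overlapping. Its log2 fold change was -1.49 ± 0.40 with an adjusted p of 0.0529, and with the replicate number as a block it was called, at -1.40 ± 0.25 and an adjusted p of 0.00317. The log2 value was -1.02 within replicates 1 and 2 and -2.07 in replicate 3. The 7 lipid-associated macrophage markers, none at 0, summed to 5678, 5569 and 7053 CPM in the same sums under vehicle and 887, 945 and 877 CPM under ginkgetin. Trem2, a receptor in that list, was at 925 to 1287 CPM against 106 to 122 CPM. In Kupffer-like cells the list was at 4125 to 5770 CPM against 494 to 946 CPM, and its part in the Tlr1 and Cd14 values of either was not tested.

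Fold changes in macrophage-like cells sat below the plain CPM ratios. TMM scaling (the trimmed mean that edgeR uses to balance libraries) moved ginkgetin over vehicle by -0.45 on the log2 scale in this class. Apoe, the lipid-carrying apolipoprotein, made up 4.36%, 4.38% and 6.29% of the UMIs of macrophage-like cells under vehicle and 1.01%, 1.41% and 1.31% under ginkgetin. Scaled to total counts instead, Tlr3 was at 1.73 and remained called (adjusted p 0.0114), Tlr1 was at -0.35 and Cd14 at -1.05 (adjusted p 0.129), and Myd88 turned from -0.24 to 0.29. The shift was -0.17 in endothelial-like cells, -0.10 in monocyte-like, -0.07 in B cell-like and 0.02 in dendritic-like cells.

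The other members gave no call in macrophage-like cells without the block. Tlr8 had 7.81, 7.24 and 14.0 CPM under vehicle and 0, 4.23 and 6.43 CPM under ginkgetin, where the 0 of 351801 UMIs in ginkgetin replicate 1 allows up to 8.53 CPM. The groups did not overlap, and the log2 fold change of -1.59 ± 0.54 had an adjusted p of 0.0928, or 0.0145 at -1.72 with the block. With each library left out it ran from -2.23 to -1.20. Tlr4 was at 25, 17.6 and 33.4 CPM under vehicle and 42.6, 39.5 and 51.4 CPM under ginkgetin, again without overlap, but its log2 fold change after TMM was 0.36 ± 0.25 (adjusted p 0.355), and 0.07 in replicate 3 alone. Tlr13 (-0.79 ± 0.32, adjusted p 0.135) and Tlr7 (-0.66 ± 0.30, adjusted p 0.175) overlapped between groups. With the block their adjusted p was 0.0297 at -0.82 for Tlr13 and 0.0391 at -0.72 for Tlr7, both under 2-fold. Tlr2 ran from 43.9 to 95.5 CPM under vehicle and from 71.1 to 94.1 CPM under ginkgetin, with a log2 fold change of 0.05 ± 0.30 whose direction differed between replicates 1 and 2 (0.50) and replicate 3 (-0.58). Myd88 was at 44.9, 36.5 and 45.7 CPM under vehicle and 25.6, 33.9 and 85.9 CPM under ginkgetin, ginkgetin replicate 3 being the highest of all.

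With the replicate block, 3 of 9 members were called in macrophage-like cells, Tlr3 higher and Tlr8 and Cd14 lower, against 15.8% of all genes tested. Without the block 5 of 9 had an unadjusted p under 0.05, against 32.0% of all genes. The median log2 fold change of the 9 was -0.66 and that of all genes tested 0.02. By CPM, 2 of the 9 tested members (Tlr3, Tlr4) were higher in every ginkgetin library than in every vehicle library, against 33.0% of all genes tested. Lower without overlap were 3 of the 9 (Tlr1, Tlr8, Cd14), against 8.02% of genes, and the 0 of Tlr8 in ginkgetin replicate 1 allows a level above 2 of its vehicle values.

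Kupffer-like cells alone gave a similar picture. Here Cd14 fell as well as Tlr3 rising, so 2 of 9 members were called against 8.13% of the genes tested. Cd14 was at 175, 179 and 386 CPM under vehicle and 122, 111 and 149 CPM under ginkgetin, a log2 fold change of -1.35 ± 0.30 (adjusted p 0.0390). Tlr3 was at 8.27, 7.48 and 12.9 CPM against 34.1, 25.6 and 28.5 CPM, a log2 fold change of 1.18 ± 0.29 (adjusted p 0.0482), with 1.44 within replicates 1 and 2 and 0.67 in replicate 3. Tlr1 was at -0.89 ± 0.22 (adjusted p 0.0507). Neither call held in every fit. The call for Cd14 was lost without any 1 of the 6 libraries, the log2 value then lying between -1.50 and -0.99, and with total-count scaling (-0.95, adjusted p 0.117), and that for Tlr3 was lost without any library but vehicle replicate 3, with values from 0.98 to 1.33. With the block 3 of 9 members were called (15.3% of all genes), Tlr8 being added at -1.54 with an adjusted p of 0.0379.

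**Figure D2:**
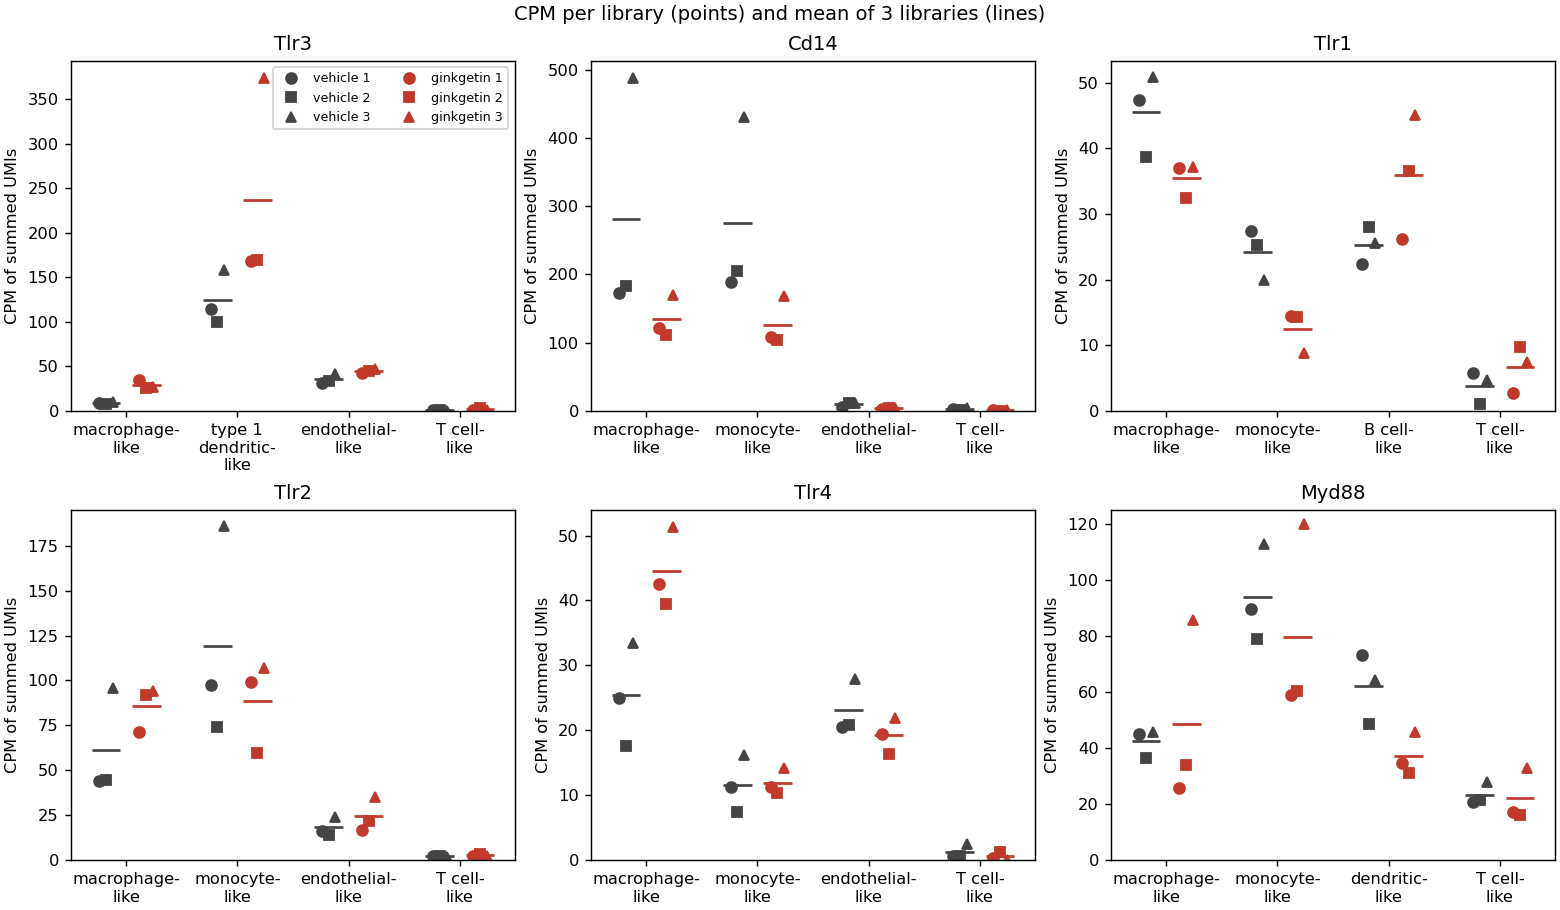
CPM of summed UMIs per library for 6 of the genes in 4 classes each (linear axes starting at 0), with vehicle in grey, ginkgetin in red, marker shapes for replicates 1, 2 and 3, and a line at each group's mean. Tlr3 in macrophage-like cells and Cd14 in monocyte-like cells show no overlap between groups, and vehicle replicate 3 is the highest point for Cd14 in the classes drawn other than endothelial-like cells.

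Tlr3 had a smaller change in endothelial-like cells than in macrophage-like cells. The groups filled different clusters in this class too. One cluster held 1007 of 1012 and 462 of 490 endothelial-like cells of vehicle replicates 1 and 2, another 327 of 400 of vehicle replicate 3, a further one 988 of 1133 of ginkgetin replicate 3, and the largest 1017 of 1220 and 2186 of 3009 of ginkgetin replicates 1 and 2. Tlr3 was at 30.9, 33.8 and 41.1 CPM under vehicle and 42.7, 44.6 and 46.6 CPM under ginkgetin, groups that did not overlap but lay close together, and the log2 fold change was 0.19 ± 0.14 (adjusted p 0.654). The difference between its effect in macrophage-like and in endothelial-like cells was 1.0 ± 0.25 on the log2 scale, with an adjusted p of 0.0273 for the group by class term in edgeR. It was the 1 member of 9 tested for which this term was called, against 8.04% of 11414 genes. Leaving out ginkgetin replicate 2 kept that call (1.07), and leaving out any other library lost it, with values from 0.77 to 1.05. For Tlr4, at 0.36 in macrophage-like and -0.43 in endothelial-like cells, the difference was 0.75 ± 0.26 (adjusted p 0.0892).

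In dendritic-like cells Tlr3 had the largest change of any member. It was at 43.8, 40.2 and 55.3 CPM under vehicle and 102, 94.4 and 164 CPM under ginkgetin, and the groups were well separated. The log2 fold change was 1.36 ± 0.19, the same within replicates 1 and 2 (1.35) and in replicate 3 (1.37). Its adjusted p was 0.124 in edgeR without the block and 0.0128 with it. Without the block 0 of 6 members were called, as were 0.00% of the 8212 genes tested, although 3 members had an unadjusted p under 0.05 (16.9% of genes) and DESeq2 called Tlr3 (1.66% of genes). With the block Tlr3 was the 1 member called, against 2.96% of genes. The make-up of the class moved too, since type 1 conventional cells were 24%, 28.3% and 25.6% of dendritic-like cells under vehicle and 49.0%, 42.9% and 38.1% under ginkgetin. The 10 endothelial markers, none at 0, summed to 114 to 140 CPM in dendritic-like cells under vehicle and 295 to 966 CPM under ginkgetin. That is 0.882% to 1.39% and 1.55% to 6.2% of their level in endothelial-like cells. Their part in the Tlr3 value was not tested.

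Within type 1 conventional dendritic-like cells the separation of Tlr3 was smaller. The levels were 114, 99.8 and 158 CPM under vehicle and 168, 169 and 374 CPM under ginkgetin, so that the nearest libraries were close. The log2 fold change was 0.99 ± 0.28 with an adjusted p of 0.226, and 0.97 ± 0.22 with an adjusted p of 0.00972 with the block, just under 2-fold. None of the 3 members tested was called without the block (0 of 3 by DESeq2 and limma-voom as well, 2 at an unadjusted p under 0.05 beside 15.4% of genes, and 0.00% of 6057 genes called by edgeR, 2.11% by DESeq2 and 0.00% by limma-voom) or with it (3.96% of genes).

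Myd88 in dendritic-like cells was at 73.2, 48.7 and 64.3 CPM under vehicle and 34.5, 31.1 and 45.5 CPM under ginkgetin. The groups did not overlap, and the log2 fold change was -0.74 ± 0.20 (adjusted p 0.174, or 0.0543 with the block). Acaa1a, whose gene overlaps Myd88, moved the same way there, from 90.2 to 91.8 CPM under vehicle to 56.3 to 65.0 CPM under ginkgetin, and its part in the Myd88 value was not tested. Cd14, low in this class, was at 15.2, 12.3 and 29.2 CPM against 8.13, 8.07 and 10.8 CPM (-1.06 ± 0.35, adjusted p 0.205). With the symbol set of the tables as the block, which parts replicate 3 from replicates 1 and 2, it was called, at -1.09 and an adjusted p of 0.0489. The 11 macrophage markers, none at 0, summed to 428 to 560 CPM in dendritic-like cells under vehicle and 154 to 288 CPM under ginkgetin, and their part in the Cd14 value was not tested. In type 2 conventional cells Cd14 was at 22.7, 15.9 and 49.5 CPM under vehicle and 18.8, 16.2 and 23.1 CPM under ginkgetin, which overlapped. In type 1 cells it was at 4.82 to 6.76 against 1.68 to 3.59 CPM, on 1 to 8 UMIs. Type 1 cells were a larger share of the class under ginkgetin, and the part of that in the Cd14 value was not tested. Of the 6 members tested in dendritic-like cells, 1 (Tlr3) was higher without overlap, against 8.06% of genes, and 2 (Cd14, Myd88) were lower, against 12.4%. The median log2 fold change of the 6 was -0.51 beside 0.02 for all genes.

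Cd14 was below 0 on the log2 scale in each of the 4 classes where it was tested. In monocyte-like cells it was at 189, 205 and 431 CPM under vehicle and 108, 103 and 168 CPM under ginkgetin, without overlap. Its log2 fold change was -1.21 ± 0.32 with an adjusted p of 0.221, and -1.16 ± 0.22 with an adjusted p of 0.0334 with the block. In the same monocyte-like sums the lipid-associated markers were at 3824, 3530 and 3219 CPM under vehicle and 1938, 1659 and 1670 CPM under ginkgetin, and the macrophage markers at 2934, 3076 and 2937 against 2517, 1935 and 2093 CPM, none at 0 and neither overlapping. The part of those markers' cells in the monocyte-like Cd14 value was not tested. In endothelial-like cells, where the level was near background, it was at 5.2, 11.5 and 11.4 CPM against 2.80, 3.35 and 3.79 CPM, and the log2 fold change of -1.61 ± 0.36 (adjusted p 0.131) became -1.65 ± 0.33 (adjusted p 0.0182) with the block. Cholangiocyte-like cells, which were not tested, showed 168, 118 and 342 CPM against 47.7, 28.3 and 125 CPM. T cell-like cells, which do not use CD14, had 2.24, 1.63 and 3.56 CPM against 0.927, 0.304 and 1.32 CPM, so the level outside myeloid cells moved in the same direction. In endothelial-like sums some lists named for myeloid cells were lower under ginkgetin and others were not. The 7 lipid-associated macrophage markers summed to 1421 to 2108 CPM under vehicle and 605 to 701 under ginkgetin, the 8 patrolling monocyte markers to 4504 to 6749 and 904 to 1005, and the 8 classical monocyte markers to 157 to 238 and 44.8 to 117. Trem2 made up 12 to 24.6 CPM of the lipid-associated sum under vehicle. The patrolling list includes Fabp4, a leading gene of endothelial-like clusters that held mostly vehicle cells. In monocyte-like cells that list was at 719 to 2149 CPM, so in endothelial-like sums it does not mark monocyte RNA alone. The 11 macrophage markers were at 514, 465 and 372 CPM against 203, 337 and 366 CPM, so replicate 3 barely differed. The 8 Kupffer markers overlapped (172 to 264 against 215 to 312 CPM), and the 7 type 2 dendritic markers were higher under ginkgetin (62.2 to 103 against 113 to 136 CPM). None of the markers in these 6 lists was at 0. The 8 neutrophil markers, 1 of them at 0, spread widely at 196, 31.5 and 60.6 CPM against 35, 125 and 12.1 CPM, and the other myeloid lists (type 1, migratory and plasmacytoid dendritic, mast and basophil) overlapped too. Their part in the endothelial-like value was not tested. Vehicle replicate 3 had the highest Cd14 level in macrophage-like, monocyte-like, dendritic-like and cholangiocyte-like cells.

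In monocyte-like cells 0 of 7 members were called by edgeR (0.00% of 8416 genes), with 2 at an unadjusted p under 0.05 (14.5% of genes), 1 called by DESeq2 (Cd14, 1.70% of genes) and 0 by limma-voom. With the block Cd14 was the 1 member called, against 2.67% of genes. Tlr1 was at 27.4, 25.2 and 19.9 CPM under vehicle and 14.4, 14.3 and 8.85 CPM under ginkgetin, without overlap, with a log2 fold change of -1.06 ± 0.36 (adjusted p 0.283, or 0.0536 with the block). With the symbol set as the block Tlr1 was called there at -1.07 and an adjusted p of 0.0415. The ginkgetin values rested on 9, 14 and 10 UMIs. Tlr7 spread widely within the ginkgetin group, at 9.57, 48.1 and 119 CPM against 30.5, 22.8 and 54.4 CPM under vehicle, and no difference could be read from it (0.56 ± 0.61). Tlr13 (0.58 ± 0.36) and Tlr2 (-0.50 ± 0.35) overlapped between groups, as did Myd88 (-0.36 ± 0.23), and Tlr4 was at -0.06 ± 0.32. The median log2 fold change of the 7 was -0.36, beside 0.01 for all genes.

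B cell-like and endothelial-like cells showed little. In B cell-like cells only Tlr1, Tlr7 and Myd88 were high enough to be tested, and 0 of 3 were called by edgeR with or without the block (1.75% and 0.00% of 6974 genes), by DESeq2 or by limma-voom, with 0 at an unadjusted p under 0.05. Tlr1 was at 22.4, 28.0 and 25.6 CPM under vehicle and 26.1, 36.6 and 45.0 CPM under ginkgetin, which overlapped (0.43 ± 0.26, adjusted p 0.508). In endothelial-like cells 0 of 5 members were called by edgeR, against 0.482% of 10158 genes, with 2 at an unadjusted p under 0.05 (13.8% of genes), 1 called by DESeq2 (Cd14, 2.79% of genes) and 0 by limma-voom. The block called 1 (Cd14), against 4.37% of genes. Endothelial Tlr4 was at 20.5, 20.7 and 27.9 CPM under vehicle and 19.3, 16.3 and 21.9 CPM under ginkgetin, overlapping, with a log2 fold change of -0.43 ± 0.16 (adjusted p 0.317). Tlr2 (0.26 ± 0.24) and Myd88 (-0.39 ± 0.16) did not pass either.

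**Figure D3:**
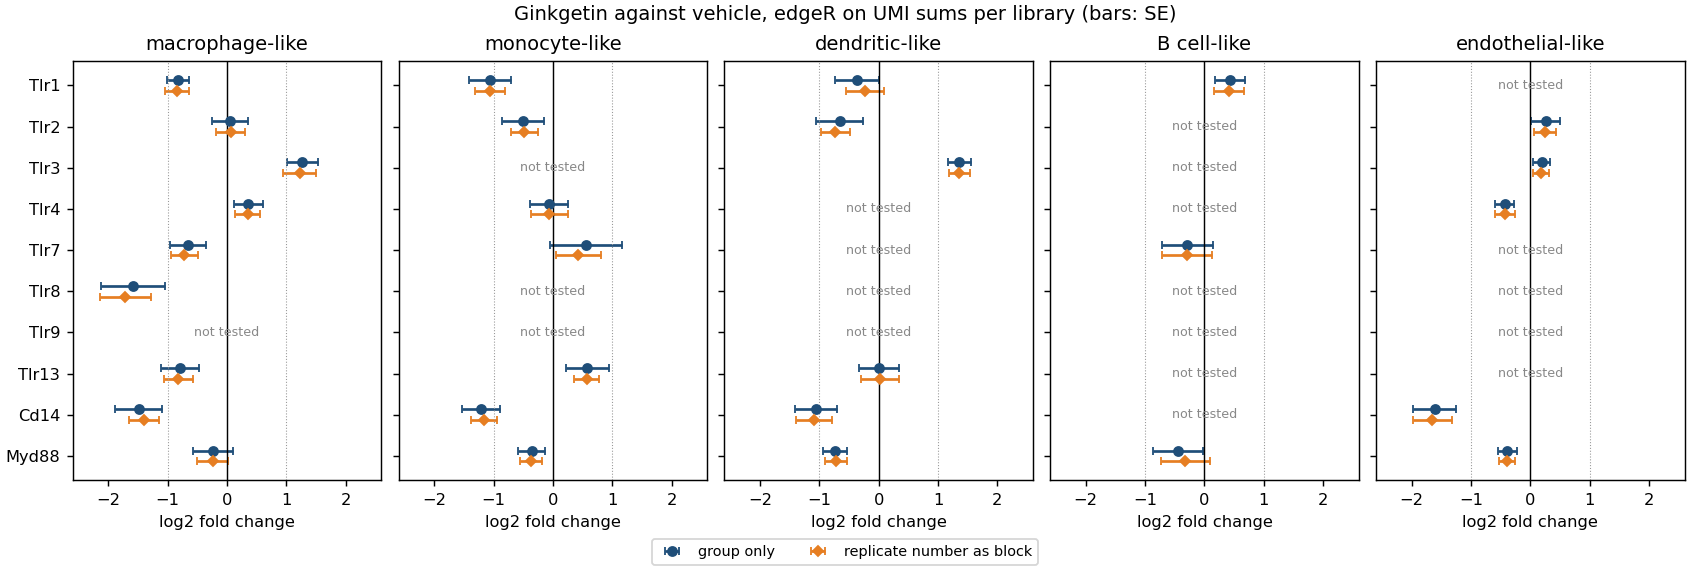
Log2 fold change of ginkgetin over vehicle with its SE for each gene (rows) in 5 classes (panels), from edgeR on UMI sums of 3 libraries a group, with group only (circles) and with the replicate number as a block (diamonds); dotted lines mark 2-fold. Tlr3 lies to the right in macrophage-like and dendritic-like cells and near 0 in endothelial-like cells, and Cd14 lies to the left in each of the 4 classes where it was tested.

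Per-cell detection was compared after each cell was thinned to 1000 UMIs, since depth differed. The share of macrophage-like cells with a Cd14 UMI was 21.1% ± 9.80 (SD, n = 3) under vehicle and 8.64% ± 1.88 (n = 3) under ginkgetin, and that of monocyte-like cells 17.9% ± 4.54 and 9.83% ± 1.04, beside 0.221% and 0.0604% in T cell-like cells. Tlr3 was detected in 0.956% ± 0.244 and 2.73% ± 1.09 of macrophage-like cells and in 1.92% ± 1.17 and 8.59% ± 3.56 of dendritic-like cells, beside 0% and 0.103% of T cell-like cells. In macrophage-like cells the shares of Tlr4 were 2.42% ± 0.231 and 4.69% ± 1.64, those of Tlr13 3.72% ± 0.448 and 2.09% ± 0.998 and those of Tlr8 0.95% ± 0.441 and 0.198% ± 0.198. Myd88 was detected in 7.09% ± 1.12 and 3.58% ± 0.569 of dendritic-like cells, Tlr4 in 2.84% ± 0.40 and 2.04% ± 0.302 of endothelial-like cells and Tlr1 in 2.39% ± 0.22 and 3.85% ± 1.46 of B cell-like cells. The exact two-sided permutation p was 0.4 for Tlr1 and 0.1 for the others, the smallest that 3 against 3 libraries allow, so none could pass (adjusted over the members of a class 1 and 0.2 to 0.5). Such shares were not computed for genes other than the members. Shares of the remaining members in each class are not given here, so the list does not show how often the groups separated. T cell-like shares are given for Cd14 and Tlr3 only. Thinning left out 2 vehicle and 58 ginkgetin macrophage-like cells that were too shallow. Unthinned, the Tlr3 share in macrophage-like cells was 9.28% under vehicle and 8.26% under ginkgetin, and the Cd14 share 70.0% and 26.1%.

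The wider pathway was read from 71 other genes in 6 roles, of which 70 were in the tables. In macrophage-like cells 62 were tested, and 3 rose and 3 fell, which is 9.68% of them against 10.5% of all genes tested. With the block 6 rose and 5 fell, 17.7% against 15.8%. Both shares were close to that of the class, so the genes named here describe members of the list and do not set it apart. Their median log2 fold change was -0.13, beside 0.02 for all genes. In Kupffer-like cells the same 3 fell and none rose, 4.84% of 62 against 8.13% of all genes (with the block 5 higher and 5 lower, 16.1% against 15.3%), since Tlr12 (0.83 ± 0.32, adjusted p 0.138), Tab2 (1.09 ± 0.28, adjusted p 0.0552) and Il6 (2.52 ± 0.77, adjusted p 0.0827) did not pass there.

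Among receptors Tlr12, an endosomal receptor for profilin, rose from 26.1, 28.2 and 39.1 CPM under vehicle to 65.4, 98.7 and 110 CPM under ginkgetin in macrophage-like cells (log2 fold change 1.11 ± 0.20, adjusted p 0.0203). Of 9 co-receptors and chaperones Cd36, a scavenger receptor that works with TLR2, fell by 1.56 ± 0.26 on the log2 scale (adjusted p 0.0167), from 407, 317 and 345 CPM to 136, 123 and 245 CPM, and the upper end was Hsp90b1, a chaperone of these receptors (0.48 ± 0.20, adjusted p 0.152). Of 19 adaptors and kinases Tab2, which links TRAF6 to the kinase TAK1, rose by 1.07 ± 0.25 (adjusted p 0.0361), with Irak2 at the low end (-0.36 ± 0.23). Traf3, a ubiquitin ligase of the interferon branch, was higher only with the block (1.03 ± 0.32, adjusted p 0.0371, against 1.08 ± 0.43 and 0.139). None of 9 transcription factors was called, the ends being Rela (0.47 ± 0.16, adjusted p 0.0916) and Relb (-0.75 ± 0.29, adjusted p 0.123), both subunits of NF-kB. With the block Relb had an adjusted p of 0.0496 at -0.85, under 2-fold.

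Of 8 inhibitors in macrophage-like cells Tnip3, a partner of the deubiquitinase A20, fell by 4.74 ± 0.70 (adjusted p 0.0137), from 21.0, 29.0 and 60.2 CPM to 0, 4.23 and 1.38 CPM. Dusp1, a phosphatase that turns off MAP kinases, was higher only with the block (1.18 ± 0.26, adjusted p 0.00766, against 1.08 ± 0.42 and 0.13). Tnfaip3, which encodes A20, was the lower end among those at a mean of 20 CPM or more (-0.59 ± 0.63, adjusted p 0.573). Of 15 induced targets Il6, an inflammatory cytokine, rose by 3.02 ± 0.58 (adjusted p 0.0227) from a very low level, 0.892, 1.08 and 2.97 CPM to 5.69, 21.2 and 26.6 CPM, and Il18, a cytokine of the inflammasome, fell by 2.0 ± 0.29 (adjusted p 0.0135), from 127, 102 and 69.8 CPM to 31.3, 29.6 and 42.2 CPM. Il1b was at 1.0 ± 0.43 and Cxcl2, a neutrophil chemokine, at -2.11 ± 0.75, neither called. With the block Il1b (1.15) was also higher and Cxcl1 (-2.58) and Ptgs2 (-2.24) lower.

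Outside macrophage-like cells none of these genes was called without the block, where few of all genes were called either (0.00% in monocyte-like, dendritic-like and B cell-like and 0.482% in endothelial-like cells). The counts tested were 56 in monocyte-like, 54 in dendritic-like, 42 in B cell-like and 50 in endothelial-like cells. With the block, Cyld (1.01 ± 0.21), a deubiquitinase, was higher and Tnip3 (-1.02 ± 0.22) lower in monocyte-like cells, 3.57% of the list against 2.67% of all genes. In dendritic-like cells Tlr12 (1.06 ± 0.23) and Cd180 (1.08 ± 0.17), a TLR4 homologue, were higher, and the chemokine genes Cxcl10 (-2.02 ± 0.24) and Ccl5 (-1.16 ± 0.20) lower, 7.41% against 2.96%. Type 1 dendritic-like cells alone gave the other direction for Ccl5. There the block called it higher (1.42 ± 0.38, adjusted p 0.0251), with the cytokine genes Tnf (1.61 ± 0.33) and Il12b (1.54 ± 0.44) higher and Cxcl10 (-2.32 ± 0.50) lower, which is 4 of 46 genes tested, 8.70% against 3.96%. In endothelial-like cells 6 were lower, Ly86 (-2.08 ± 0.50), Cd36 (-1.42 ± 0.22), Irf7 (-1.55 ± 0.27), Cxcl2 (-3.20 ± 0.48), Cxcl10 (-1.19 ± 0.24) and Ccl2 (-3.59 ± 0.42), and none was higher, 12% against 4.37%. Ccl2, a monocyte chemoattractant, was there at 68.5, 71.4 and 13.8 CPM under vehicle and 3.50, 4.13 and 3.67 CPM under ginkgetin. Ly86, a gene of myeloid and B cells that pairs with Cd180, went from a mean of 15.1 to 3.59 CPM. The lipid-associated and monocyte marker lists were lower in the same endothelial-like sums, as given above for Cd14. Under vehicle the patrolling list exceeded its level in monocyte-like cells, so it does not mark monocyte RNA alone there. Trem2 was a small part of the lipid-associated sum. The groups also lay in different endothelial clusters. The part of the lists or of the clusters in these 6 values was not tested.

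The largest changes per role outside macrophage-like cells, among genes at a mean of 20 CPM or more, did not pass without the block, at adjusted p of 0.19 to 0.676 in monocyte-like, 0.148 to 0.764 in dendritic-like, 0.353 to 0.708 in B cell-like and 0.0914 to 0.922 in endothelial-like cells. In monocyte-like cells the upper ends were Cd36 (0.79 ± 0.39), Ikbkb (0.78 ± 0.30), Rela (0.25 ± 0.24), Cyld (1.02 ± 0.42) and Ccl5 (1.24 ± 0.80), and the lower ends Ly96 (-0.52 ± 0.32), Ikbke (-0.88 ± 0.27), Relb (-0.87 ± 0.24), Tnip3 (-1.0 ± 0.23) and Cxcl2 (-1.56 ± 0.61). In dendritic-like cells the upper ends were Tlr12 (1.05 ± 0.23), Cd180 (1.09 ± 0.19), Btk (0.48 ± 0.22), Irf8 (0.51 ± 0.23), Tnfaip3 (0.33 ± 0.45) and Il12b (0.90 ± 0.68), and the lower ends Ly86 (-0.64 ± 0.23), Irak4 (-0.60 ± 0.20), Relb (-0.88 ± 0.34), Nfkbia (-0.69 ± 0.30) and Cxcl10 (-1.98 ± 0.37). Relb was thus the lower end among transcription factors in both, and also in B cell-like (-0.95 ± 0.31) and macrophage-like cells. The other B cell-like ends were Cd180 (0.50 ± 0.30), Ikbkb (0.73 ± 0.29), Rela (0.56 ± 0.24), Dusp1 (0.76 ± 0.37) and Ccl5 (1.03 ± 1.09) above 0 and Ly86 (-0.66 ± 0.25), Tbk1 (-0.30 ± 0.26) and Nfkbia (-0.61 ± 0.24) below it. In endothelial-like cells they were Lbp (0.15 ± 0.33), Ikbkb (0.55 ± 0.40), Irf3 (0.24 ± 0.20), Dusp1 (0.90 ± 0.30) and Ccl5 (0.51 ± 1.11) above 0 and Cd36 (-1.35 ± 0.32), Irak4 (-0.16 ± 0.16), Irf7 (-1.60 ± 0.36), Tnip1 (-0.84 ± 0.17) and Ccl2 (-4.0 ± 0.74) below it.

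**Figure D4:**
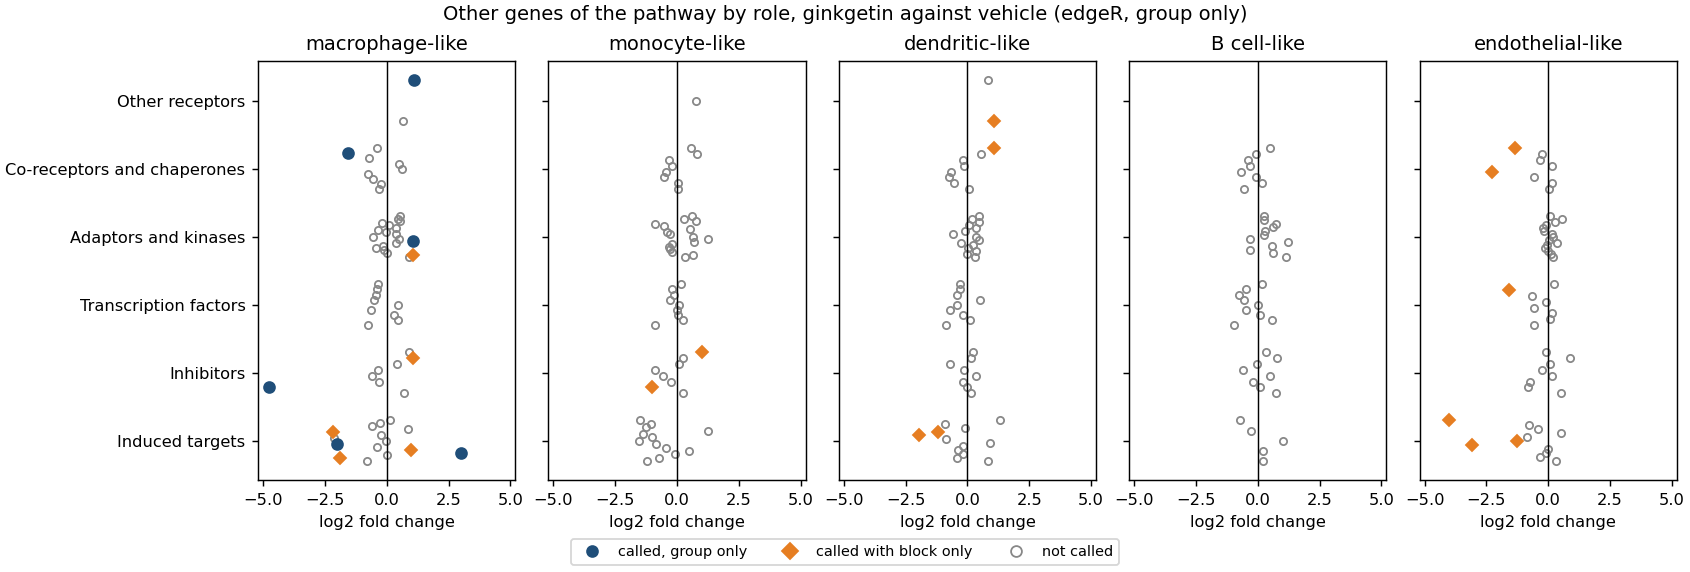
Log2 fold change of ginkgetin over vehicle (edgeR, group only) for each tested gene of the wider pathway, by role (rows) and class (panels), with genes called without the block in blue, those called only with the block in orange and the rest as open grey circles. Blue points occur only in macrophage-like cells, 3 on each side of 0.

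Expression patterns over classes placed the members beside different genes. Over 71 class-by-library sums and 12523 genes, Pearson's r of log2(CPM + 1) was highest for Tlr13 with Igsf6 and Clec4a1 (0.907 each), for Tlr7 with Cybb (0.858), for Tlr2 with Sowahc (0.866) and for Cd14 with Il1rn (0.854). Tlr3 came nearest to B4galt4 (0.835), Tlr1 to Cd86 (0.812), Tlr8 to Gpr84 (0.824), Myd88 to Fes (0.816), Tlr4 to Rab31 (0.790) and Tlr9 to Rubcnl (0.737). Among the members themselves Tlr3 stood furthest from Tlr7 (-0.199). These sums share libraries and depth, so the values are a description of pattern.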

How the data were processed

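UMI counts per gene and cell were deposited by the authors, unnormalized, 1 table per library, from 10x Genomics libraries aligned to the mouse genome (GRCm38 and mm10 in the submitters' processing notes). Counting settings are not given in the sources used here. Cells with 250 to 5000 genes and under 5% mitochondrial UMIs were kept. The study's methods word that range as UMIs, which keeps 16821 cells and was an alternative. Clusters (scanpy 1.11.5, Leiden, resolution 1, without the 10 genes) were named from markers, and 3 of 39 stayed unnamed. Scrublet called 0.0286% to 0.192% of cells as doublets and was not relied on.

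Counts were summed per library and class and tested with edgeR 4.0.16 (quasi-likelihood, TMM, filterByExpr, group only), with Benjamini-Hochberg adjustment over all genes tested in a class. The group by class term was fitted with the library as a block. A call needed an adjusted p under 0.05 and over 2-fold. DESeq2 1.42.0 and limma-voom (limma 3.58.1) were alternatives. The labels number the replicates 1 to 3 in both groups, and same-numbered libraries deviated together in every class (r of deviations from the group means 0.41 to 0.92, 18 values), so the block is given where it changed a call. Replicates 1 and 2 also correlated (0.39 to 0.67), against -0.82 to -0.48 for replicate 3 with either, the replicate 3 tables being those with the other symbol set. These values part replicate 3 from the rest and do not show a pairing of 1 with 1 or of 2 with 2. The 18 values count Kupffer-like cells beside the macrophage-like class that holds them. Shares of cells used an exact permutation test. Poisson intervals and limits for a count of 0 (3 counts) cover counting error only.

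The members, gene lists and tests were chosen with earlier results of these data known. Named were all 10 members, pathway genes called in a class, the largest rise and fall per role at 20 CPM or more (not repeated for Kupffer-like and type 1 cells), and the genes most like each member. The fits were tested on simulated data. Alternatives covered normalization, filters, cell naming, depth, doublets and each library left out.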

Additional observations from a re-analysis of the deposited data

Results flagged for a closer look

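The ginkgetin effect on Tlr3, the receptor for double-stranded RNA, differed between macrophage-like and endothelial-like cells by 1.0 on the log2 scale (SE 0.25, adjusted p 0.0273, edgeR group by class term). Tlr3 was higher in 3 of 3 ginkgetin libraries than in every vehicle library in both classes, by 1.27 in macrophage-like and 0.19 in endothelial-like cells. Of all genes tested in macrophage-like cells 33.0% were higher in that way, and the share was not computed for endothelial-like cells. The difference between the classes was 1.12 ± 0.36 within replicates 1 and 2, where it was not called. The call was also lost when any library other than ginkgetin replicate 2 was left out. Macrophage-like sums of the ginkgetin libraries held more endothelial marker RNA, at 5.61% to 11.6% of the endothelial-like level against 1.51% to 2.35% under vehicle.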

How the results depend on the processing

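In macrophage-like cells the number of members called, 1, became 2 with DESeq2, with RLE normalization, with replicates 1 and 2 only, without a cell filter and with rows counted in both symbol sets (13.5%, 10.5%, 11.8%, 12.9% and 13.4% of all genes called in the same order), 3 with the replicate block and with the symbol set as a block (15.8% and 16.4%), and 0 without a filter on low counts and with the UMI-range filter. It was 0 to 1 with each library left out, where 0.00% of all genes were called when replicate 1 or 2 of vehicle, or replicate 2 of ginkgetin, was left out, 5.14% without ginkgetin replicate 1, 2.62% without ginkgetin replicate 3 and 12.6% without vehicle replicate 3. Without the low-count filter 4.32% of all genes were called and with the UMI-range filter 2.42%. In Kupffer-like cells the 2 calls (8.13% of all genes) became 1 with RLE (7.98%) and with the top 5% of doublet scores left out (7.46%), where Tlr3 was lost, and with total counts (11%) and resolution 2 (9.75%), where Cd14 was lost, 0 without a low-count filter (2.25%) or with the UMI-range filter (2.10%), and 0 to 1 with each library left out, where 0.00% of all genes were called except without vehicle replicate 3 (12.3%). With classes from per-cell markers (8.94%) the 2 Kupffer-like calls were Tlr1 and Cd14, so Tlr3 was lost. In monocyte-like cells 0 became 1 with DESeq2 (1.70% of all genes) and the replicate block (2.67%) and 2 with the symbol set block (Tlr1 and Cd14, 2.83%). In dendritic-like cells 0 became 1 with DESeq2 (1.66%) and the replicate block (2.96%) and 2 with the symbol set block (Tlr3 and Cd14, 3.81%). In endothelial-like cells 0 became 1 with each of these 3 (2.79%, 4.37% and 4.50%). The B cell-like count was 0 under each alternative run. The replicate block changed no other member's call.

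The call for the Tlr3 difference between macrophage-like and endothelial-like cells was lost (0 members) with replicates 1 and 2 only, the UMI-range filter, no cell filter, classes from per-cell markers, resolution 2 and the top 5% of doublet scores left out, and ranged from 0 to 1 with each library left out. The shares of all genes called in these fits are not given here, so a loss of Tlr3 alone cannot be told from a loss of all calls. The cause was not tested.

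Among values that were not called, directions turned for Tlr2 in macrophage-like cells (-0.11 to 0.47 with each library left out, the negative values being -0.11, -0.10 and -0.05, and -0.05 with classes from per-cell markers) and for Myd88 there with total counts (0.29). In Kupffer-like cells Myd88 was at 0.36 with total counts (-0.83 to 0.02 with each library left out). In monocyte-like cells Tlr4 was at 0.04 with total counts, 0.14 in replicates 1 and 2, 0.07 without a cell filter and 0.07 without top doublet scores (-0.23 to 0.16 with each library left out, 0.16 without vehicle replicate 3), Tlr7 at -0.22 without ginkgetin replicate 3 (highest 0.99), and with the UMI-range filter Tlr2 at 0.07 and Myd88 at 0.09. In dendritic-like cells Tlr13 was at -0.50 in replicates 1 and 2, -0.08 without a low-count filter and -0.02 without a cell filter (-0.49 to 0.15 with each library left out), and Tlr1 at 0.09 without vehicle replicate 1 (lowest -0.61). In B cell-like cells Tlr7 was at 0.14 without vehicle replicate 3 (lowest -0.43) and Myd88 at 0.08 without vehicle replicate 1 (lowest -0.70). In type 1 cells Tlr13 was at -0.04 without a low-count filter (-0.40 to 0.33 with each library left out). They also turned for the unthinned difference in the share of macrophage-like cells with a UMI of Tlr3 (-1.02 percentage points) or Tlr4 (-13.0), and for Myd88 in dendritic-like cells thinned to 500 UMIs (0.145).

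Total-count scaling, rows in both symbol sets, the vascular cluster and type 1 dendritic-like cells were chosen after seeing the data. Dendritic-like cells could not be fitted with the UMI-range filter, nor type 1 cells with it or without a cell filter, because too few libraries had 10 cells. Ginkgetin macrophage-like cells were few and shallow, which limits the precision of low genes there.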
